A study of Mus musculus with 12 samples.

Results

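Dual-alpha T cells, which carry 1 beta chain (TRB) and 2 different alpha chains (TRA), were described in receptor libraries from the brain and the meninges, the membranes around the brain. They were chosen by their assembled chains, as cells with exactly 1 productive TRB contig and exactly 2 productive TRA contigs of different CDR3 nucleotide sequence, where CDR3 is the hypervariable loop that contacts antigen and a productive contig has an open reading frame. There were 464 such cells among 7056 cells with a productive chain, which is 8.91% of the 5207 cells with 1 TRB and at least 1 TRA. The 4743 cells with 1 TRB and 1 TRA, called single-alpha cells, served for comparison. The cells were leukocytes sorted by CD45 from C57BL/6 mice. NonTg mice carry no transgene, and 5xFADTg mice are a transgenic model of amyloid plaque formation, with transgenes driven by a neuronal promoter. There were 2 parenchyma libraries per genotype and 1 meninges library per genotype. The labels give no age and name no animals, so it is unknown whether the libraries of a genotype came from separate animals. The p-values below therefore measure only the spread between libraries, which may be technical. The number of productive TRA chains defines the dual-alpha cells and is not itself a result.

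The T cell receptor is a heterodimer of an alpha and a beta chain. A developing thymocyte rearranges its TRB genes first and, once a productive TRB stops further TRB rearrangement, goes on to join V and J segments at TRA on both chromosomes. TRA lacks the strict allelic exclusion of TRB. The J segments nearest to the V segments are used first, and repeated rounds on the same chromosome replace an earlier join with one that uses a more upstream V and a more downstream J. A mature T cell can therefore transcribe an alpha chain from each chromosome and may show 2 receptors with 1 shared beta chain.

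The clones below are shown because they carry the results: the clone with most dual-alpha cells in each library, and a clone whose alpha chains share a V segment. A beta clone is the set of cells of 1 library with an identical TRB CDR3 nucleotide sequence. Each line is the CDR3 from its first to its last codon, 5′ to 3′. Lower case letters match the germline V segment from the left or the germline J segment from the right in GENCODE M21 (GRCm38, the assembly named mm10). Capitals match neither, and mark the bases of the join (for TRB, D segment bases are among them).
TRBV1-TRBJ1-5 clone of 5xFADTg parenchyma 2, beta: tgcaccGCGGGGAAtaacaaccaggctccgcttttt
its TRAV10-TRAJ31 alpha: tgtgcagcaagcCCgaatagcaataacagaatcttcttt
its TRAV7-5-TRAJ32 alpha: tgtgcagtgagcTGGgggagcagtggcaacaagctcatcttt
TRBV12-1-TRBJ2-3 clone of NonTg parenchyma 2, beta: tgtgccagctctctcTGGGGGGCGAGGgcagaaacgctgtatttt
its TRAV15D-1-DV6D-1-TRAJ15 alpha: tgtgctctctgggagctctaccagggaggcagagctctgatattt
its TRAV9D-3-TRAJ22 alpha: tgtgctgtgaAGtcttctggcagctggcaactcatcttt
TRBV19-TRBJ1-2 clone of NonTg parenchyma 1, beta: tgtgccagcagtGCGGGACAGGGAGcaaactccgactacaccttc
its TRAV9-1-TRAJ18 alpha: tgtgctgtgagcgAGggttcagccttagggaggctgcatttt
its TRAV13-1-TRAJ32 alpha: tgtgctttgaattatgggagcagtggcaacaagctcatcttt
TRBV14-TRBJ1-1 clone of NonTg meninges and parenchyma 1, beta: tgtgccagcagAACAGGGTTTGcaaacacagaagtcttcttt
its TRAV9D-1-TRAJ31 alpha: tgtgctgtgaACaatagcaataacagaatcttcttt
its TRAV4D-4-TRAJ7 alpha: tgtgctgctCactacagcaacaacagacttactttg
TRBV3-TRBJ1-3 clone of 5xFADTg parenchyma 1, beta: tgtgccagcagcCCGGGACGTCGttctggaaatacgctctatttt
its TRAV14-2-TRAJ26 alpha: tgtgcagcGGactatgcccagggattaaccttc
its TRAV6-7-DV9-TRAJ31 alpha: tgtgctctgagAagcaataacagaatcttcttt
TRBV12-2+TRBV13-2-TRBJ2-1 clone of 5xFADTg meninges, beta: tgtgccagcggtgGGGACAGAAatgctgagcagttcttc
its TRAV14N-3-TRAJ27 alpha: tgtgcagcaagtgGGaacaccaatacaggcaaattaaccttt
its TRAV13D-1-TRAJ22 alpha: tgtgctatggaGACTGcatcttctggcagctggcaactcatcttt
TRBV19-TRBJ2-1 clone of NonTg parenchyma 1, beta: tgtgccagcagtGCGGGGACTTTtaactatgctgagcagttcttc
its TRAV5-1-TRAJ26 alpha: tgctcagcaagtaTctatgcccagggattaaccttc
its TRAV5-1-TRAJ27 alpha: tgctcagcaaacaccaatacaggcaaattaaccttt
TRBV12-2+TRBV13-2 is a joint V label of the deposited files. Some of these alpha chains hold no base outside germline V and J, such as the TRAV13-1-TRAJ32 chain, and others hold a short stretch, such as the TRAV13D-1-TRAJ22 chain.

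The libraries held 15827899 to 26710709 reads and 49997 to 128700 unique molecular identifiers (UMIs, tags that mark each captured molecule) over their listed contigs, and 425 to 2122 cells with a productive chain. Over the 15 pairs of libraries 23 cell barcodes were shared, 0 of them with an identical TRB, and 3 of these involved a dual-alpha cell. All contigs were TRA or TRB apart from 26 of mixed chain type, and cell types were not checked from transcripts. The meninges and parenchyma libraries of a genotype shared clones, described below, so the 6 libraries are not fully independent.

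Dual-alpha cells were found in all 6 libraries, at 7.84 to 11.5% of cells. They were 95 of 1063 cells with 1 TRB and at least 1 TRA in NonTg parenchyma 1 (8.94%, exact Clopper-Pearson 95% interval 7.29 to 10.8%) and 75 of 766 in NonTg parenchyma 2 (9.79%, 7.78 to 12.1%). In the 5xFADTg parenchyma they were 98 of 1206 (8.13%, 6.65 to 9.81%) and 127 of 1453 (8.74%, 7.34 to 10.3%). The NonTg meninges had the highest share, 40 of 349 (11.5%, 8.32 to 15.3%), and the 5xFADTg meninges the lowest, 29 of 370 (7.84%, 5.31 to 11.1%), and all 6 intervals overlapped. In parenchyma, 5xFADTg libraries averaged 8.43% ± 0.435 and NonTg libraries 9.36% ± 0.604 (SD, 2 libraries each), and the groups did not overlap (n = 2, two-sided exact permutation p = 0.333, the smallest that 2 against 2 libraries allow). The meninges mean was 9.65% ± 2.56 (n = 2) against 8.90% ± 0.688 in parenchyma (n = 4, two-sided exact permutation p = 0.667). Against parenchyma 1, with which the meninges shared clones, the share was higher in NonTg meninges (11.5% against 8.94%) and lower in 5xFADTg meninges (7.84% against 8.13%). Counted over beta clones, in place of cells, both directions turned: 11.7% ± 1.34 of the clones with a TRA had a dual-alpha cell in 5xFADTg parenchyma and 10.3% ± 0.0248 in NonTg (n = 2 each, two-sided exact permutation p = 0.333), and 8.94% ± 0.854 in meninges (n = 2) against 10.98% ± 1.14 in parenchyma (n = 4, two-sided exact permutation p = 0.133). Intervals cover counting error only.

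**Figure D1:**
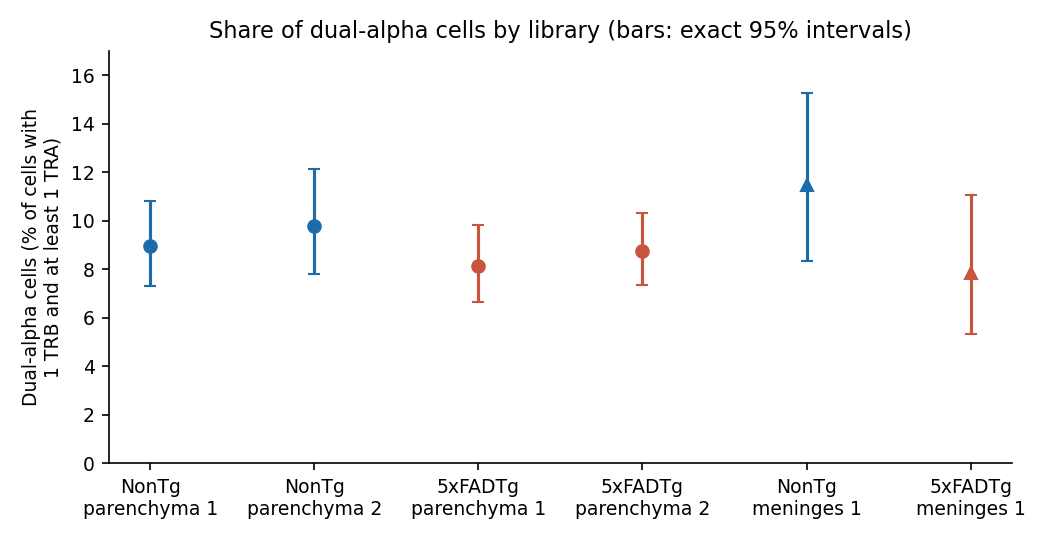
Share of dual-alpha cells among cells with 1 TRB and at least 1 TRA in each library, in percent, with exact 95% binomial intervals (circles parenchyma, triangles meninges, blue NonTg, red 5xFADTg). The points lie between 7.84% and 11.5% and all intervals overlap.

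The 2 alpha chains of a cell were captured very unequally. The first TRA, the one with more UMIs, had a median of 52 UMIs (range 1 to 405) and the second a median of 4 (range 1 to 31), so that the second held a median of 8.15% of the cell's TRA UMIs (quartiles 3.75 and 19.1%). The order of first and second is set by the UMIs themselves, so these values are a description. Over the libraries the median of the first TRA was 42 to 94.5 UMIs and that of the second only 4 to 5. The TRB chain of the same cells had a median of 8 UMIs. The UMIs of the chains were equal in 13 cells. With a line drawn at 15 UMIs, chosen after the values were seen, 367 of the 464 cells had 1 chain at or above it, 92 had none and 5 had both. Of the single-alpha cells without a nonproductive TRA contig, 89.9% had their TRA at or above that line (3480 cells).

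By reads the chains were nearer to each other. The second TRA held a median of 48.5% of the cell's TRA reads (quartiles 36.6 and 59.9%) and had more reads than the first in 211 of the 464 cells. Each UMI of the second TRA was backed by a median of 806 reads, against 68.8 for the first TRA and 999.6 for TRB. This held in each library: the second TRA had a median of 543 to 2570.1 reads per UMI and the first 55.0 to 115, and the ranges over libraries did not overlap. The scatter of UMIs and reads shows the cells below the diagonal for UMIs and around it for reads. What sets the number of UMIs per chain was not tested.

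**Figure D2:**
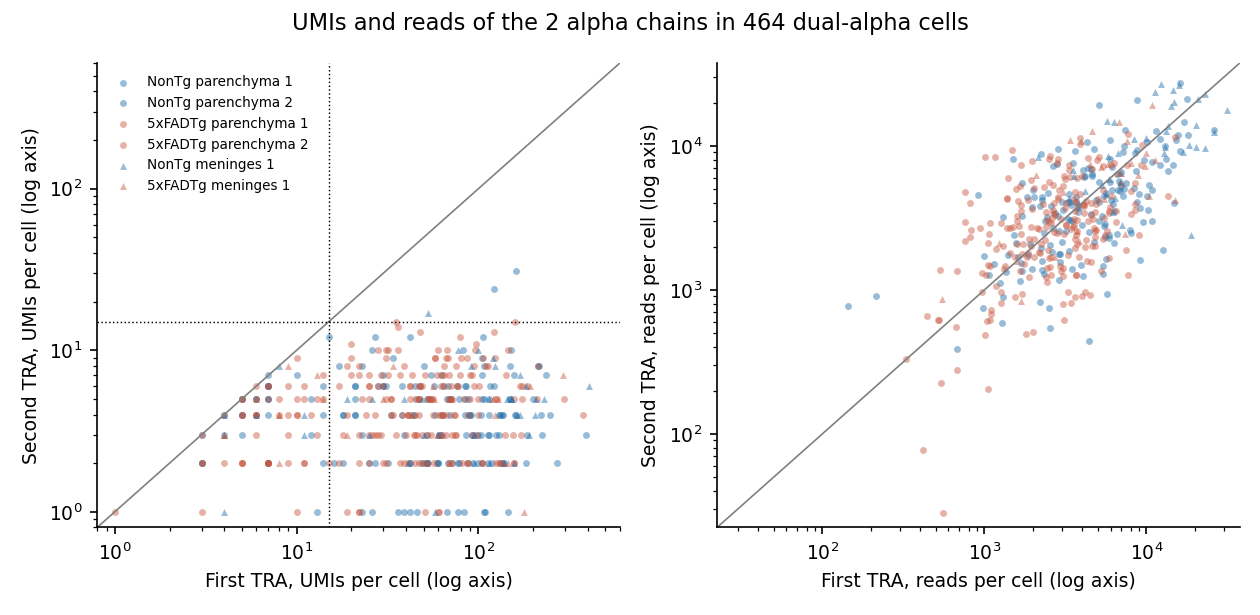
UMIs (left) and reads (right) of the first and the second TRA in each of the 464 dual-alpha cells, on log axes, with the line of equality in grey and 15 UMIs dotted (circles parenchyma, triangles meninges, blue NonTg, red 5xFADTg). Only 5 cells have both chains at 15 UMIs or more, while 211 cells have more reads for the second TRA.

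Which alpha chain was the high one was not a fixed property of a clone. In 45 beta clones the same pair of alpha chains was found in 2 or more dual-alpha cells, 185 cells in all, and in 28 of these clones each of the chains led in some cell. Of the 9 clones with 5 or more such cells, 8 had both orders. In the TRBV1-TRBJ1-5 clone of 5xFADTg parenchyma 2, the TRAV10-TRAJ31 chain had more UMIs in 11 cells, the TRAV7-5-TRAJ32 chain in 14, and they were equal in 2. Both chains of that clone ranged widely, from 2 to 124 and from 2 to 106 UMIs, yet the lower of the pair never passed 11 in a cell while the higher had a median of 38. In the TRBV3-TRBJ1-3 clone of 5xFADTg parenchyma 1 the TRAV14-2-TRAJ26 chain led in 4 cells and the TRAV6-7-DV9-TRAJ31 chain in 3, the lower chain having 6 to 8 UMIs and the higher 7 to 110. The TRBV12-1-TRBJ2-3 clone of NonTg parenchyma 2 was more one-sided: its TRAV15D-1-DV6D-1-TRAJ15 chain led in 14 cells, its TRAV9D-3-TRAJ22 chain in 2, with 1 tie. Cells of a clone share 1 ancestor and are not replicates.

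The unequal capture was also seen where the other alpha join was nonproductive. Of the single-alpha cells 1263 also had a nonproductive TRA contig, and there the productive chain had a median of 4 UMIs and the nonproductive contig 56, with the nonproductive contig higher in 85.9% of the cells. Both reached 15 UMIs in 25 of these cells. In the 156 cells with 2 TRB and 2 TRA, which fall outside the dual-alpha cells, the TRA medians were 68.5 and 4 UMIs and both reached 15 in 5.

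Dual-alpha cells rarely had a further, nonproductive TRA contig. Such a contig was present in 24 of 464 dual-alpha cells (5.17%, exact 95% interval 3.34 to 7.60%) and in 1263 of 4743 single-alpha cells (26.6%, 25.4 to 27.9%). In the parenchyma the shares were 3.16% against 23.8% and 6.67% against 28.7% in NonTg, and 5.10% against 25.1% and 7.87% against 27.8% in 5xFADTg. In the meninges they were 0 of 40 against 33.7% in NonTg, where a count of 0 allows up to 7.50% by 3 counts and up to 8.81% by the exact 95% limit, and 3.45% against 24.6% in 5xFADTg. A cell has TRA on 2 chromosomes, so a further TRA contig is not independent of the rule that chose these cells, and no test is given. Of the 24 cells, 2 had 4 or more TRA contigs in all. Whether the nonproductive contigs had the V and J of the cell's own alpha chains was not checked for the 24. Nonproductive TRB contigs, from the locus that the rule used only through its productive chain, were found in 47.8% of dual-alpha and 40.8% of single-alpha cells. The per-library difference was 7.09 ± 9.19 percentage points (SD, n = 6), higher in 5 of 6 libraries (two-sided exact sign-flip p = 0.156, not part of the planned tests).

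TRB capture was measured on its own, since the rule did not use TRB UMIs. The median TRB UMIs were 7 to 9 over libraries in dual-alpha and 8 to 9 in single-alpha cells, a mean log2 ratio of -0.08 ± 0.20 (SD, n = 6, two-sided exact sign-flip p = 0.5, adjusted p = 0.643 over the 9 sign-flip tests). The log2 ratio averaged -0.31 in meninges (n = 2) and 0.04 in parenchyma (n = 4), without overlap (two-sided exact permutation p = 0.0667, the smallest possible). Each of the 9 per-library differences was compared between genotypes and between tissues, without adjustment. Only the comparisons that reached the smallest possible p are given in this text, so they are picked extremes. Summed over both chains, TRA had a median of 53.5 and 47 UMIs in 5xFADTg parenchyma dual-alpha cells against 50 and 34 in single-alpha cells, and 58 and 74 against 48 and 58 in NonTg parenchyma. In the meninges it was 98.5 against 71 in NonTg and 62 against 50 in 5xFADTg. The sum was higher in 6 of 6 libraries, with a mean log2 ratio of 0.33 ± 0.14 (SD, n = 6). It counts productive contigs only. Single-alpha cells without a nonproductive TRA contig had medians of 60 and 83 UMIs in NonTg and 62 and 46 in 5xFADTg parenchyma. In the meninges they had 127 in NonTg and 76 in 5xFADTg. The dual-alpha medians were below these in every library except 5xFADTg parenchyma 2. The rule asks for 2 productive chains in this sum, so the sum is tied to the rule and no test is given.

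The alpha chains of a clone used J segments that lie near each other. TRAJ segments are numbered from high to low along chromosome 14, from TRAJ61 (chr14:54155005-54155076, annotated as a pseudogene) next to the V segments to TRAJ2 (chr14:54217836-54217901) next to the constant gene, on the plus strand of GRCm38. With 1 pair per beta clone (322 pairs), the alpha chains were a median of 8 TRAJ numbers apart (a median of 8.33 kb), against a median of 14 when the first chain of a clone was set beside the second of another clone in its library. Of the pairs 36.3% lay within 5 numbers and 9.32% were more than 20 apart, against 20.3% and 31.4% between clones. The TRAV5-1 clone shown above is an example at the near end, joining the neighbours TRAJ26 (chr14:54194490-54194549) and TRAJ27 (chr14:54192303-54192361) to the same V segment. The TRBV14-TRBJ1-1 clone is one of the 30 far pairs, with TRAJ31 (chr14:54187895-54187951) and TRAJ7 (chr14:54211470-54211528).

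The mean distance within clones was 10.1 and 8.47 TRAJ numbers in NonTg parenchyma, 9.94 and 9.09 in 5xFADTg parenchyma, 8.74 in NonTg meninges and 9.04 in 5xFADTg meninges. Between clones it was 16.0 and 15.1, 15.4 and 17.3, 16.2 and 14.1 in the same order, so the groups did not overlap. The distance within clones was shorter in 6 of 6 libraries, with a difference of -6.46 ± 1.22 numbers (SD, n = 6, two-sided exact sign-flip p = 0.03125, the smallest possible, and adjusted p = 0.0703 over 9 tests, which misses 0.05). The difference ran from -8.19 to -5.09 over the libraries. Among the 9 tests are the nonproductive TRA share and the summed TRA UMIs, which are tied to the rule and also at the smallest p. Their presence lowers the adjusted p of the J and V distances. With 6 libraries, no test can pass 0.05 after adjustment unless many of the 9 reach the smallest p. Spearman's rho between the TRAJ numbers of the pair was 0.608 over the 322 beta clones and 0.537 to 0.713 by library, given as a description since clones of a library share its depth and some recur between libraries. An identical TRAJ was used by 18 pairs (5.59%, against 2.68% between clones). By lists of TRAJ61 to TRAJ41, TRAJ40 to TRAJ21 and TRAJ20 to TRAJ2, 56.2% of pairs had both chains in 1 list against 38.5% between clones, and only 4 pairs (1.24%) joined the outer lists. The plot of TRAJ pairs shows these few in its far corners. A like distance was seen between the productive and the nonproductive TRA of single-alpha cells in 766 beta clones. It was 8.41 ± 0.304 numbers within and 15.4 ± 1.10 between clones (SD, n = 6), shorter in 6 of 6 libraries. Clones that also held dual-alpha cells, and contigs with the J of the productive chain, were not left out.

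**Figure D3:**
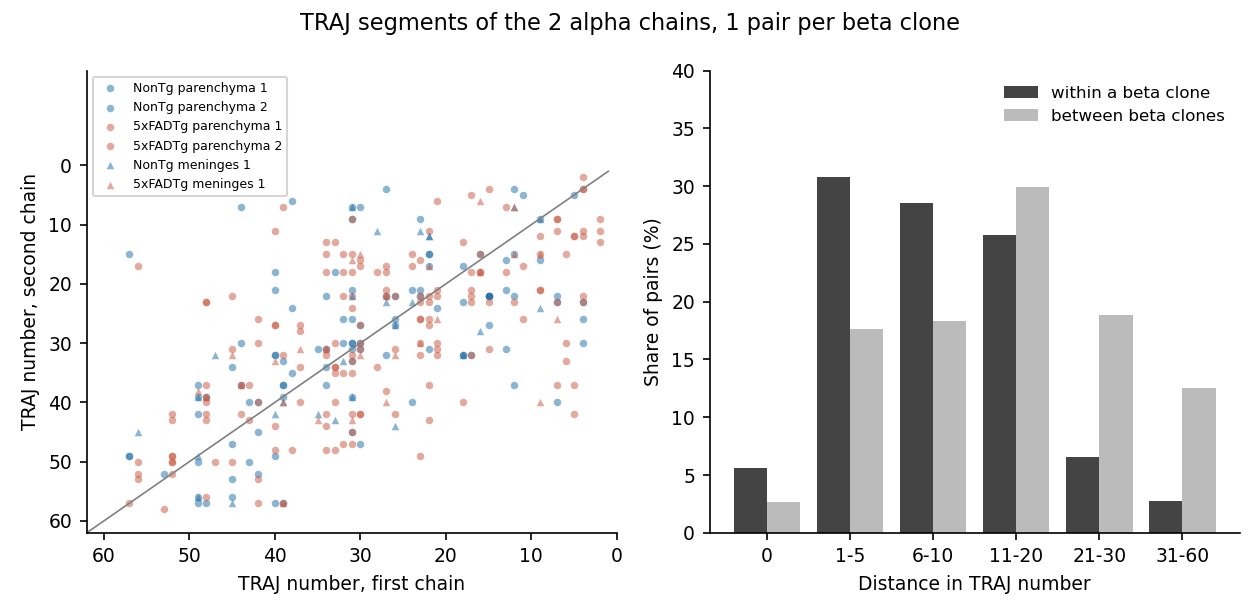
Left, TRAJ numbers of the alpha chains of each of 322 beta clones (first chain, the one with more summed UMIs, against second; circles parenchyma, triangles meninges, blue NonTg, red 5xFADTg; grey line of equality). Right, share of pairs by distance in TRAJ number, within a clone (dark) and between clones of a library (light). Pairs more than 20 numbers apart make up 9.32% within clones and 31.4% between.

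V segments were also nearer to each other within clones, with a looser relation. By rank among 128 annotated TRAV segments, from TRAV1 (chr14:52427928-52428876) to TRAV23 (chr14:53977153-53977678), the chains were a median of 23 ranks apart within and 36 between clones. The mean within clones was 31.8 and 31.3 ranks in NonTg parenchyma, 36.0 and 36.0 in 5xFADTg parenchyma, 32.0 in NonTg meninges and 39.4 in 5xFADTg meninges, against 40.8 and 43.0, 41.1 and 41.5, 46.9 and 42.9 between clones. It was shorter in 6 of 6 libraries, with a difference of -8.31 ± 4.37 ranks (SD, n = 6, two-sided exact sign-flip p = 0.03125, adjusted p = 0.0703 over 9 tests). Spearman's rho was 0.279 over the 322 clones. The difference was -9.04, -11.7 and -14.9 ranks in the NonTg and -5.19, -5.53 and -3.54 in the 5xFADTg libraries, which did not overlap (n = 3 each, two-sided exact permutation p = 0.1, the smallest that 3 against 3 allow). This unadjusted comparison, like that of TRB UMIs, is given because it reached the smallest p. The same V was used by 8 pairs, and no pair shared both V and J. TRAV segments have near-identical D and N copies in C57BL/6, and a read assigned to the wrong copy would shift the rank.

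Single segments were then compared between dual-alpha and single-alpha clones. Of 153 V and J segments tested, edgeR's quasi-likelihood test with Benjamini-Hochberg adjustment called 1 (0.654%), and 10 had an unadjusted p under 0.05. The called segment was TRAJ18 (chr14:54200777-54200842), the J segment of the invariant alpha chain of iNKT cells, lipid-reactive T cells. It made up 19 of 644 alpha chains of dual-alpha clones (2.95%) and 196 of 2711 of single-alpha clones (7.23%), a log2 difference of -1.24 ± 0.28 (SE, adjusted p = 0.00700). A dual-alpha clone gives 2 chains to this count and a single-alpha clone 1. Counted per clone, 5.90% of dual-alpha and 7.23% of single-alpha clones held a TRAJ18 chain. DESeq2 made 0 calls (7 segments at an unadjusted p under 0.05, adjusted p = 0.702 for TRAJ18). The edgeR fits over cells in place of clones, without 5xFADTg parenchyma 2 and without the 5xFADTg meninges also made 0 calls, with 20, 12 and 10 segments at an unadjusted p under 0.05.

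The segments with the next smallest p went either way and did not pass. TRAV11, the invariant V partner of TRAJ18, was at 3.11% against 5.98% of chains (log2 -0.89 ± 0.29, edgeR adjusted p = 0.221). Counted per clone it was at 5.90% against 5.98%, and with TMM scaling it passed as lower per chain (edgeR adjusted p = 0.00877). TRAV16 was at 0.776% against 2.14% (log2 -1.42 ± 0.60, edgeR adjusted p = 0.576). On the other side TRAV15D-1-DV6D-1 was at 1.09% against 0.148% (log2 2.59 ± 0.90, edgeR adjusted p = 0.221), from 7 and 4 chains. It is a V of the NonTg parenchyma 2 clone with most dual-alpha cells. TRAV14-3 was at 2.64% against 1.29% and TRAV13D-2 at 2.48% against 1.14% (edgeR adjusted p = 0.576 for both). The J segments most used by dual-alpha clones were TRAJ31 (6.21% of chains), TRAJ22 (5.59%), TRAJ23 and TRAJ30 (4.19% each) and TRAJ40 (4.04%). The V segments most used were TRAV13-1 (3.57%), TRAV11 and TRAV3D-3 (3.11% each), TRAV6-6 (2.95%) and TRAV12-2 (2.80%). Each of these 10 had an adjusted p of 0.221 or more.

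Wider lists were then counted along the locus. TRAJ61 to TRAJ41 held 21.3% of dual-alpha and 23.5% of single-alpha chains, TRAJ40 to TRAJ21 52.3% and 49.4%, and TRAJ20 to TRAJ2 26.4% and 27.1%. The mean TRAJ number was 29.3 ± 1.66 against 29.5 ± 0.911 (SD, n = 6 libraries), lower in 3 and higher in 3 (two-sided exact sign-flip p = 0.875, adjusted p = 0.906). V segments shared by the alpha and delta loci made up 9.78% of dual-alpha and 6.60% of single-alpha chains, and the V segments farthest from J, the outer list of 3 by rank, 34.2% and 29.2%. These lists were not tested. The number of bases that match neither germline V nor J was a mean of 2.83 in the first chain, 2.70 in the second and 2.62 in single-alpha chains. The share of chains without any such base was 16.0%, 16.9% and 17.5%.

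Where the beta clone held other cells with a TRA, the alpha chains of most dual-alpha cells came back in them. For 245 of the 464 dual-alpha cells this could not be asked, since they were the only cell of their clone. Of the dual-alpha cells 218 belonged to a beta clone with 2 or more cells that had a TRA. Their second TRA was found in another cell of the clone in 205 of them (94.0%, exact 95% interval 90.0 to 96.8%), their first TRA in 200 and both in 188 (86.2%). Each chain was looked for on its own, in single-alpha cells too, so both may have been found in different cells. The interval treats the cells of a clone as independent, though a match between 2 dual-alpha cells can count for both. The TRBV1-TRBJ1-5 clone alone gave 28 of the 218 cells. By library the second TRA agreed in 48 of 53 and 43 of 43 cells in NonTg parenchyma, 32 of 35 and 59 of 63 in 5xFADTg parenchyma, 19 of 19 in NonTg meninges and 4 of 5 in 5xFADTg meninges. The second minus first difference was 2.28 ± 4.35 percentage points (SD, n = 6, two-sided exact sign-flip p = 0.5, adjusted p = 0.643). The difference was 0 in 3 libraries, above 0 in 2 and below 0 in 1. Second chains that did agree and those that did not both had a median of 4 UMIs.

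Some cells of the clones with a repeated pair showed only part of it. The 45 clones held 278 cells: 185 had both alpha chains (66.5%), 87 had only 1 of them (31.3%), 4 had no productive TRA, and 2 carried another alpha. In 10 clones, cells with only the first and cells with only the second chain were both seen, 7 of these clones in NonTg parenchyma 1. Of the 51 cells of the TRBV1-TRBJ1-5 clone, 27 had both chains, 13 only TRAV10-TRAJ31, 8 only TRAV7-5-TRAJ32, 2 no TRA and 1 had one of the pair beside a different alpha. The 31 cells of the TRBV12-1-TRBJ2-3 clone split into 17 with both, 8 with only TRAV15D-1-DV6D-1-TRAJ15 and 6 with only TRAV9D-3-TRAJ22. The 18 cells of the TRBV14-TRBJ1-1 clone in NonTg parenchyma 1 split into 10, 5 with only TRAV9D-1-TRAJ31 and 3 with only TRAV4D-4-TRAJ7. In the authors' deposited clonotype calls 23 of the 45 clones were spread over more than 1 identifier, up to 3.

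Pairs of alpha chains also recurred between tissues. The same TRB with the same alpha pair was found in dual-alpha cells of 2 libraries in 11 cases, carried by 68 cells, and all 11 joined the meninges to parenchyma 1 of the same genotype, 8 in NonTg and 3 in 5xFADTg. None joined parenchyma 2 to another library or was found in both genotypes. The TRBV14-TRBJ1-1 clone had 10 dual-alpha cells in NonTg parenchyma 1 and 5 in the NonTg meninges. The TRBV19-TRBJ1-2 clone had 11 and 4, and the TRBV19-TRBJ2-1 clone with the TRAV5-1 chains 6 and 2. A TRBV3-TRBJ2-3 clone with TRAV7D-2-TRAJ45 and TRAV13-4-DV7-TRAJ56 had 2 and 3. In 5xFADTg, the TRBV12-2+TRBV13-2-TRBJ2-1 clone had 3 in parenchyma 1 and 3 in the meninges, and a TRBV19-TRBJ2-2 clone with TRAV12-3-TRAJ34 and TRAV13D-2-TRAJ31 had 4 and 1. Counting any cell of such a TRB in another library of the genotype (35 recurrences), both alpha chains were seen there in 22, 1 of them in 12 and neither in 1. The labels do not say whether the tissues came from the same mice.

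Among large clones, dual-alpha cells were either the greater part or nearly absent. Of 53 beta clones with 10 or more cells that had a TRA, 6 were 54.8 to 73.3% dual-alpha, 8 were 2.56 to 7.69% with 1 or 2 such cells each, and 39, with 1091 cells together, had none. No large clone lay between 7.69 and 54.8%. The 6 were the TRBV1-TRBJ1-5, TRBV12-1-TRBJ2-3, TRBV14-TRBJ1-1, TRBV19-TRBJ1-2 and TRBV19-TRBJ2-1 clones above and a TRBV29-TRBJ2-2 clone of 5xFADTg parenchyma 2 with 6 of 10 cells. In the 8 clones with few, the 9 dual-alpha cells carried the alpha of another cell of their clone in 8 cases, as the first chain in 5 and the second in 4. The 6 dual-alpha clones had a nonproductive TRA contig in 8 of 133 cells and in at most 10.2% of a clone. In the TRBV1-TRBJ1-5 clone, 3 of these cells had a nonproductive TRAV7-5-TRAJ32 contig, the V and J of its own pair. The TRBV14-TRBJ1-1, TRBV19-TRBJ1-2 and TRBV12-1-TRBJ2-3 clones had 1 such cell each, also with V and J of the clone's own pair. Such contigs need not be further joins. The other clones ranged from 0 to 76.7%, with none in 6 of the 39 clones without dual-alpha cells, so the ranges overlapped. In the 38 with 2 or more such cells, 323 of 346 (93.4%) carried the commonest nonproductive V and J of their clone. The plot of large clones shows the 6 at the upper left and the others along the lower edge. Cells were grouped by TRB alone, and the chain count that chose the dual-alpha cells is also plotted here, so this is a description.

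**Figure D4:**
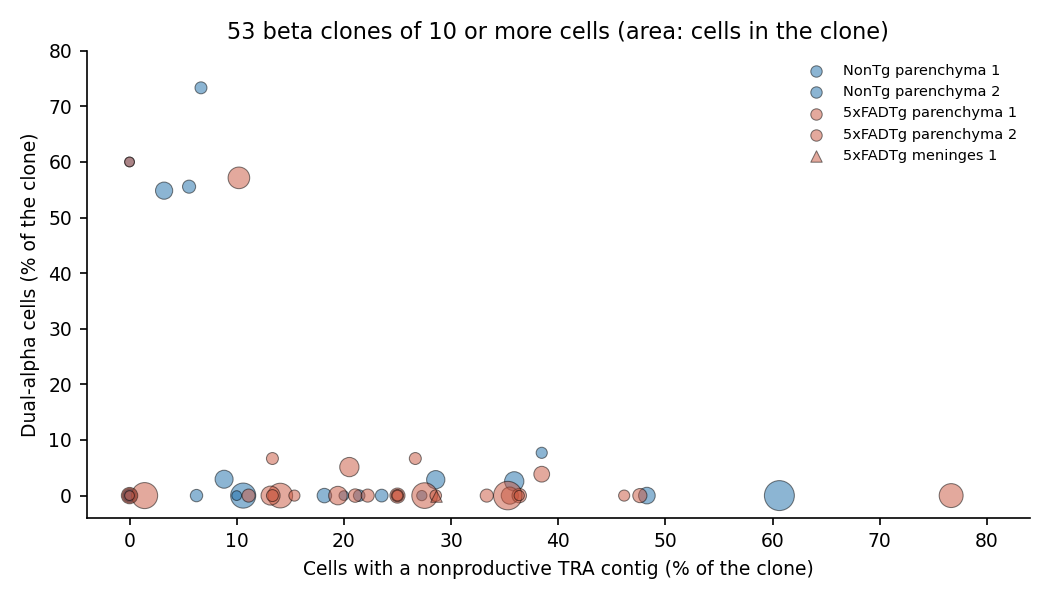
Beta clones of 10 or more cells with a TRA (53 clones, symbol area by number of cells): share of cells with a nonproductive TRA contig against share of dual-alpha cells, both in percent of the clone. In 6 clones 54.8 to 73.3% of cells are dual-alpha, and all other clones stay at 7.69% or below.

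Dual-alpha cells were found in clones of all sizes. Of the 464, 245 were the only cell of their beta clone. They made up 9.61% of the cells in clones of 1 cell, 11.3% in clones of 2 to 4 and 11.1% in clones of 5 to 9. In clones of 10 or more they made up 5.92% (exact 95% interval 4.78 to 7.23%, which treats the cells of a clone as independent). Size counts every cell with that single TRB. By library, clones of 10 or more were at 9.58 and 7.05% in NonTg parenchyma, against 8.55 and 8.79% in clones of 1 cell. In 5xFADTg parenchyma they were at 0.971 and 7.16%, against 11.8 and 10.3%. The meninges had 0 dual-alpha cells in clones of that size, and the NonTg meninges had 0 such clones. The share of cells in expanded clones (2 or more cells) was 55.8% in dual-alpha against 53.6% in single-alpha cells of NonTg parenchyma 1, 57.3% against 52.0% in NonTg parenchyma 2 and 47.5% against 25.9% in NonTg meninges. It was 35.7% against 57.4% in 5xFADTg parenchyma 1, 50.4% against 58.8% in 5xFADTg parenchyma 2 and 17.2% against 19.1% in 5xFADTg meninges. The difference was thus above 0 in the 3 NonTg and below 0 in the 3 5xFADTg libraries. Over all 6 it was -0.462 ± 14.5 percentage points (SD, n = 6, two-sided exact sign-flip p = 0.906, adjusted p = 0.906). Between genotypes it differed by -20.4 percentage points (n = 3 each, two-sided exact permutation p = 0.1, the smallest possible). This too is an unadjusted comparison picked because it reached the smallest p. Single clones weigh heavily: without the clone with most dual-alpha cells in each library, NonTg parenchyma moved to -3.42 and -6.13, and with 1 value per clone 5xFADTg parenchyma 2 and the 5xFADTg meninges moved to 0.195 and 4.04. The genotype difference without those leading clones was -21.5 points (n = 3 each, two-sided exact permutation p = 0.1).

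**Figure D5:**
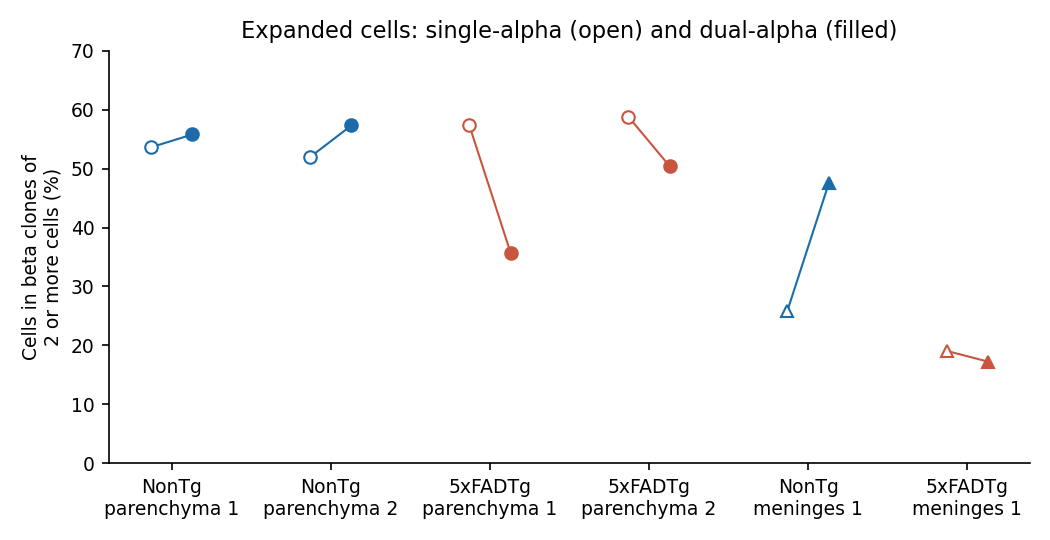
Percentage of single-alpha (open) and dual-alpha (filled) cells that belong to beta clones of 2 or more cells, by library (circles parenchyma, triangles meninges, blue NonTg, red 5xFADTg). The filled symbol is higher in the 3 NonTg libraries and lower in the 3 5xFADTg libraries.

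The alpha chains of dual-alpha cells were also looked for beside another TRB. Leaving out iNKT-like and MAIT-like cells, the second TRA was also carried by a cell with a different single TRB of the library for 53 of 452 cells and the first TRA for 61. By library the second was at 21.5 and 29.3% in NonTg parenchyma, 6.32 and 3.31% in 5xFADTg parenchyma, 2.50% in NonTg meninges and 0 of 28 cells in 5xFADTg meninges, and the first at 21.5, 30.7, 10.5, 5.79, 2.50 and 0%. These shares are by cell, so 1 large clone moves them. The second minus first difference was -1.34 ± 1.73 percentage points (SD, n = 6, two-sided exact sign-flip p = 0.25, adjusted p = 0.45).

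Some dual-alpha cells paired an invariant alpha with another chain. iNKT-like cells, named by TRAV11 or TRAV11D with TRAJ18, respond to lipids presented by CD1d, and MAIT-like cells, named by TRAV1 with TRAJ33, to vitamin B metabolites presented by MR1. The names rest on receptor sequence alone. Of 204 iNKT-like cells 11 were dual-alpha (5.39%, exact 95% interval 2.72 to 9.44%), against 453 of 5003 other cells (9.05%). A TRBV13-3-TRBJ1-1 clone of 31 cells in 5xFADTg parenchyma 1, with TRAV11-TRAJ18 as its commonest alpha, had 0 dual-alpha cells. These shares are by cell, and the interval treats the cells of a clone as independent. Of 26 MAIT-like cells 1 was dual-alpha. In 8 of the 11 iNKT-like cells the invariant alpha was the chain with fewer UMIs, for example 2 UMIs beside 52 of a TRAV13N-3-TRAJ33 chain in NonTg parenchyma 1. Another cell of that library had 51 UMIs of the invariant chain beside 2 of TRAV6N-6-TRAJ17 (both cells were chosen as examples after their values were seen). In a TRBV1-TRBJ1-3 cell of 5xFADTg parenchyma 1 the invariant chain had 5 UMIs beside 2 of TRAV14D-1-TRAJ13, and in a TRBV29-TRBJ2-2 cell of 5xFADTg parenchyma 2 it had 3 beside 2 of TRAV6D-3-TRAJ40. The MAIT-like cell, of 5xFADTg parenchyma 2, had 1 UMI of its TRAV1-TRAJ33 chain beside 60 of TRAV10D-TRAJ6. The iNKT-like CDR3 took 4 forms over 11 beta clones, shown because the shared part is germline and few bases differ at the join, with the number of clones in brackets.
iNKT-like alpha, form 1 (5 clones): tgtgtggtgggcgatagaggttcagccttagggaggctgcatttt
iNKT-like alpha, form 2 (3 clones): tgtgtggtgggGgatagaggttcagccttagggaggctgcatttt
iNKT-like alpha, form 3 (2 clones): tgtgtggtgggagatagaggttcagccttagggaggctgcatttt
iNKT-like alpha, form 4 (1 clone): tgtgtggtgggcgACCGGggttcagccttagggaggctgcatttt

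At the edge of the rule no cell was a near miss by sequence. No cell had 2 TRA of identical CDR3 with 1 TRB and none had 3 or more productive TRA. The CDR3 of a dual-alpha cell's chains differed by 4 or more edits, with a median of 18, and all pairs differed in amino acids. Just inside, 25 cells had a second TRA of 1 UMI and 84 of 2 UMIs. Just outside were 156 cells with 2 TRB and 2 TRA, and 28 with 2 TRA and no TRB.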

How the data were processed

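Receptor libraries of 6 samples were used, and the 6 gene expression samples were not analysed here. Per the labels' protocols the 10x Immune Profiling chemistry was v2, which enriches receptor chains by PCR. Cell Ranger 6.0 and the build mm10 are named by the submitters' processing notes. The deposited files list contigs with V and J genes, CDR3 sequences and raw counts of reads and UMIs, not normalized, per the file headers. How contigs were filtered is not given in the sources used here. No doublet caller was run.

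Cells were sorted by their number of productive chains, and no minimum was set on UMIs. Segment positions and germline sequences came from GENCODE M21. Per-library differences were tested with two-sided exact sign-flip tests and adjusted by Benjamini-Hochberg over 9 tests, with 0.05 as the threshold. Of these 9, the summed TRA UMIs and the nonproductive TRA share are tied to the rule, and their p-values are not given. Segments were counted once per beta clone and chain, with at least 10 chains, and tested with edgeR 4.0.16 (R 4.3.3), with library as block and the number of beta clones, doubled for alpha chains of dual-alpha clones, as library size. DESeq2 1.42.0 was an alternative. The fit was tested on simulated data. Python 3.11.15, pandas 2.3.3, numpy 2.4.6 and scipy 1.17.1 were used. The cells, lists and named clones were chosen with earlier results of these data known. Named were segments past the threshold, the 3 with the smallest p each way and the 5 TRAV and 5 TRAJ most used, and the clones with most dual-alpha cells per library, shared between libraries, lowest in agreement or with an invariant alpha. Amino acid sequences are not reported here.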

Additional observations from a re-analysis of the deposited data

Results flagged for a closer look

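The share of dual-alpha minus single-alpha cells with a nonproductive TRA contig was -33.66 percentage points in the NonTg meninges, far from the other 5 libraries, which lay between -22.0 and -20.0. It is 1 flag among 10 sets of libraries looked at this way, and chance flags about 1 in 20. This library had 40 dual-alpha cells, of which 0 had such a contig, and the highest share in single-alpha cells.

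The difference in expanded share went in opposite directions in the 2 genotypes, with 5xFADTg minus NonTg at -20.37 percentage points. The exact permutation p was 0.1, the smallest that 3 against 3 libraries allow. With the recurring clones left out of the meninges libraries, an alternative added after the data were seen, NonTg meninges moved from 21.6 to -25.4, and the genotypes differed by -7.66 points (n = 3 each, two-sided exact permutation p = 0.6). Without clones of 10 or more cells they differed by -14.0 points (n = 3 each, two-sided exact permutation p = 0.2). Without the clone with most dual-alpha cells in each library they differed by -21.5 points (n = 3 each, two-sided exact permutation p = 0.1). With 1 value per clone they differed by -8.45 points (n = 3 each, two-sided exact permutation p = 0.2).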

How the results depend on the processing

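The distance within pairs was below that between clones in all 16 alternatives for J (-7.57 to -6.11 TRAJ numbers, 1 of them in kb) and all 15 for V (-11.1 to -6.99 ranks), none past an adjusted 0.05; only the V alternative restricted to the 17 TRAV without D or N copies was not run, since too few pairs remained. Directions of results that had not passed turned in these cases, and the causes were not tested.

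With a second TRA of at least 10% of TRA UMIs (194 cells), values were -1.271 for total TRA UMIs (log2; this choice itself removes cells with a high first chain), 2.278 points for expanded share, 2.65 for second chains in other clones, 0.7464 for the genotype share and -0.2037 for the tissue share. With 1 value per clone they were 0.05533 for TRB UMIs (log2) and 4.617 for expanded share. Shares over beta clones gave 1.452 between genotypes and -2.046 between tissues. At least 2 UMIs per contig gave 1.235 for expanded share, repeated pairs only 0.5059 for mean TRAJ number, and parenchyma only 0.04248 for TRB UMIs. Added after the data were seen, leaving out clones of 10 or more cells gave 5.777 for expanded share, 0.8641 for genotype share and -0.4731 for tissue share; leaving out each library's clone with most dual-alpha cells gave 0.06666 for TRB UMIs, and leaving recurring clones out of the meninges 0.009816.

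TMM scaling, which moved the median of all segments to -0.23, called 3 of 153 segments, all lower in dual-alpha clones. With D and N copies collapsed 2 of 120 were called, TRAJ18 as lower and 1 as higher in dual-alpha clones. DESeq2 and the fit over cells called 0. TRAJ22 was 0.06785 over cells. TRAJ23 was -0.2132 with TMM, -0.003393 with DESeq2 and -0.08754 over cells. TRAJ30 was -0.1019 with TMM and -0.2318 over cells, and TRAJ40 -0.3786 over cells (all log2).

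Leaving out each library in turn gave -4.877 (without the NonTg meninges) to 3.783 (without 5xFADTg parenchyma 1) for expanded share, -0.7376 to 0.3503 for mean TRAJ number, -1.061 (without the NonTg meninges) to 2.563 for tissue share, -1.358 (without NonTg parenchyma 1) to -0.5037 (without NonTg parenchyma 2) for genotype share, 1.018 (without 5xFADTg parenchyma 1) to 3.11 for second against first agreement, -1.605 to -0.7625 (without 5xFADTg parenchyma 1) for second chains in other clones, 0 to 1 segment calls, -0.1427 to 0.2247 for TRAJ23 and -0.005301 to 0.3513 for TRAJ30. With the replicate block, pairing parenchyma libraries by number, the genotype share differed by -0.9308 points (two-sided exact sign-flip p = 0.5, the smallest 2 pairs allow); the labels do not say that equal numbers pair the genotypes. The meninges values rest on the fewest dual-alpha cells, 29 and 40.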
